A study of Mus musculus with 12 samples.

Results

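Germ cells of the fetal testis and ovary start from the same population of primordial germ cells. In the fetal ovary they enter meiosis under retinoic acid, through STRA8, and in the fetal testis they arrest and keep or acquire a set of genes that includes pluripotency-associated factors, cancer-testis antigens and genes that silence transposons. SMAD4 is the common partner of the receptor-activated SMAD proteins and carries BMP and other TGF-beta family signals to the nucleus. The genes described here are testis germ genes that were also high in ovaries whose germ cells lacked both SMAD4 and STRA8 (DKO ovaries).

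The members were chosen by their measured values on these arrays. Of 386 genes that the study listed as male-specific germ cell genes, from gonads at E13.5, 374 were represented on the arrays. After 19 genes had been left out by name, among them those of the Nodal pathway and the Piwil, Tdrd and Dnmt3 families, 355 remained. A gene was kept when its level in control testes exceeded that in control ovaries by at least 1 on the log2 scale, which 245 genes did, and when the difference between DKO and control ovaries reached at least 0.5 of that between testes and control ovaries. This left 146 members, while 99 genes fell short of the second condition. The series as a whole measured 28867 genes. Because testes, control ovaries and DKO ovaries chose the members, the differences among these 3 groups are given as a description without a test.

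RNA was measured on 12 single-colour Agilent arrays, 3 per group and 1 pair of E14.5 gonads per array, after tamoxifen had been given at E9.5 and E10.5 in every group. The control testes and control ovary 1 were Smad4 Flox/+ with the StellaMerCreMer transgene, control ovary 2 was Smad4 Flox/+ and control ovary 3 Smad4 Flox/Flox, both without the transgene, and every control was Stra8 +/-. The Smad4 (Stella) ovaries were Smad4 flox/flox with MerCreMer and Stra8 +/-, and the DKO ovaries were Smad4 flox/flox with MerCreMer and Stra8 -/-. MerCreMer is a tamoxifen-dependent recombinase that the regulatory element of Stella restricts to germ cells, and its efficiency was described as variable, so mutant ovaries could hold germ cells with an intact allele. The mice were on a mixed background. Whole gonads were used, and fewer cells of a type and less RNA per cell cannot be told apart in such samples.

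Levels are log2 of the processed spot intensity minus the 75th percentile of the array, so that 0 is the 75th percentile and each unit is a factor of 2. Between 59.3% and 71.0% of the spots of an array were well above background. The arrays lay on 3 slides: slide 1 held the 3 testes and control ovary 1, slide 2 held control ovaries 2 and 3 and DKO ovaries 1 and 2, and slide 3 held the 3 Smad4 (Stella) ovaries and DKO ovary 3. All 146 members had a probe that passed the filter on dim probes. All 146 were well above background on every testis array, 139 on every DKO array, 127 on every Smad4 (Stella) array and 107 on every control ovary array, while 16 members were above background on no control ovary array and 10 on no Smad4 (Stella) array. For such genes a fold over that group is a lower bound.

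The regulatory sequence upstream of the members was examined first, since the choice of members did not use it. RefSeq windows of 300 bases, from 250 before to 50 after the most upstream start, on GRCm38.p6, were matched for 116 of the 146 members. The 6 runs printed here are those of 3 members with a searched motif and of 3 strongly induced or highly expressed members without one. Each gives the 250 bases before the start, 5′ to 3′ on the strand of the gene, and capitals mark matches to any of CACGTG (the E-box of MAX and MGA), its longer form TCACGTGA, TTCCCGC (E2F), GTCTAGAC and CAGACA (SMAD) or ATGCAAAT (the POU octamer) on either strand. Nxf2 lies on the minus strand at chrX:134964755-134965004, Zfp819 on the plus strand at chr7:43606919-43607168, Mageb16 on the minus strand at chrX:79671436-79671685, Nlrp4c on the plus strand at chr7:6044911-6045160, Fthl17e on the plus strand at chrX:9033236-9033485 and Tex19.2 on the minus strand at chr11:121118678-121118927.
Nxf2: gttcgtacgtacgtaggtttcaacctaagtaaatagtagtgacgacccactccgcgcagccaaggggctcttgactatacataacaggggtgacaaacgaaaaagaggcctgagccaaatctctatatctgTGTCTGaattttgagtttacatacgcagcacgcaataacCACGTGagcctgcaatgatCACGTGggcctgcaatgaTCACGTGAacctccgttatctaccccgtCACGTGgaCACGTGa
Zfp819: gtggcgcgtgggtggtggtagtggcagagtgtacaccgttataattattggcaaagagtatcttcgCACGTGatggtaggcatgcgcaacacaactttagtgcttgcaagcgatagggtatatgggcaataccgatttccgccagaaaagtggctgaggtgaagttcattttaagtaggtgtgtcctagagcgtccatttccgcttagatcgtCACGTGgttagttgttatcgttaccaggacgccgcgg
Mageb16: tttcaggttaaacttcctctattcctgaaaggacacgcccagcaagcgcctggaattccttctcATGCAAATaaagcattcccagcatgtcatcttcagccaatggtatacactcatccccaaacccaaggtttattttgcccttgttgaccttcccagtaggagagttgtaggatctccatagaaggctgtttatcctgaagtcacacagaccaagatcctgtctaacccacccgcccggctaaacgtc
Nlrp4c: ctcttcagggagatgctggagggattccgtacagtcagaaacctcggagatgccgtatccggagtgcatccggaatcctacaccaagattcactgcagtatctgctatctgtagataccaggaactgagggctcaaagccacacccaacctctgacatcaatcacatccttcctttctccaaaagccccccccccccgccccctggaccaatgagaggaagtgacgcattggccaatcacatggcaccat
Fthl17e: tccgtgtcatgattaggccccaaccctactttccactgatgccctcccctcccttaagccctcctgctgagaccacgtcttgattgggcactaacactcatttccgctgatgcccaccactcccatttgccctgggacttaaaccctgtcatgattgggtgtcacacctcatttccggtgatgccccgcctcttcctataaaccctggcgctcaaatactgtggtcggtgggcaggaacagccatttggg
Tex19.2: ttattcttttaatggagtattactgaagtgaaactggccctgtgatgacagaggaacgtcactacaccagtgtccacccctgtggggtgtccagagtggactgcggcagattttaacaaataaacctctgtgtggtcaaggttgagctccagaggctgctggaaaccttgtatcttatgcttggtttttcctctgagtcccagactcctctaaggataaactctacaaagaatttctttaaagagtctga

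The run of Nxf2 held 5 copies of CACGTG, 1 of them within TCACGTGA, and that of Zfp819 held 2. The octamer occurred 1 time in the run of Mageb16. The runs of Nlrp4c, Fthl17e and Tex19.2 held 0 of the searched motifs, which says only that these letters were not in these windows. Across members, CACGTG was found in 14 of 116 windows (12.1%), against 7.24% of 27025 promoters and 17.9% of the 67 windows of listed genes that fell short of the DKO condition. ATGCAAAT was found in 6 member windows (5.17%), against 1.77% of all promoters and 1.49% of the windows of those other listed genes. TCACGTGA occurred in 1.72% of member windows against 1.0% of all, TTCCCGC in 4.31% against 4.67%, CAGACA in 17.2% against 21.1% and GTCTAGAC in 0 against 0.211%. The windows of members held a median of 10 CpG dinucleotides, with quartiles of 6 and 22, where all promoters held 7, with quartiles of 3 and 20. The promoters printed above ranged from 2 CpG dinucleotides in the whole window of Tex19.2 to 20 in those of Nxf2 and Zfp819. A match to a motif is a description of the sequence and not of a bound site.

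By the mm9 positions of the probes, 17 of the 146 members (11.6%) were on the X chromosome, against 3.84% of the genes tested and 3.06% of the listed genes that did not reach the DKO condition. The X-linked members included 10 of the 11 cancer-testis antigens among the members, the exception being Brdt on chromosome 5. Several members were direct neighbours among protein-coding genes: Dppa4, Dppa2 and Morc1 on chromosome 16, Gdf3 and Dppa3 on chromosome 6, Gml and Gml2 on chromosome 15, and Ssxb1 and Ssxb2 on the X chromosome. The probes of the Ssx family members shared at most 32 of 60 bases in any ungapped alignment. The probes were compared only with each other and not with the transcripts of the family, so whether each reads a single gene was not tested.

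The median level of the members was -1.25 in control testes, -3.54 in control ovaries, -2.94 in Smad4 (Stella) ovaries and -1.39 in DKO ovaries. By the condition that chose them, all 146 were higher in testes than in control ovaries, by a median of 2.09 on the log2 scale and a range of 1.01 to 6.07. The DKO minus control ovary difference had a median of 1.90 and ranged from 0.61 to 5.0. Shares of the testis difference are given here and below over all probes, as in the rule. The DKO difference reached a median of 89.2% of the testis difference, with quartiles of 67.4% and 111%. In 50 members the DKO ovaries reached 100% or more of the testis difference, and in 51 they stayed under 75%. On the probes that passed the filter, the DKO mean exceeded the testis mean in 48 members, against 48.6% of all genes. Every DKO array lay above every testis array in 8 members, against 24.7% of all genes, and below every testis array in 42, against 25.9% of all genes, and since the rule used both groups nothing is read from these counts. Over all probes, the members just inside the threshold were Dbx2, with 50.3% of the testis difference, 1700012B07Rik with 50.5% and Fsd1 with 51.7%, and the genes just outside it were Polr1e with 49.5%, Prss29 with 49.4% and 4930415O20Rik with 49.2%.

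**Figure D1:**
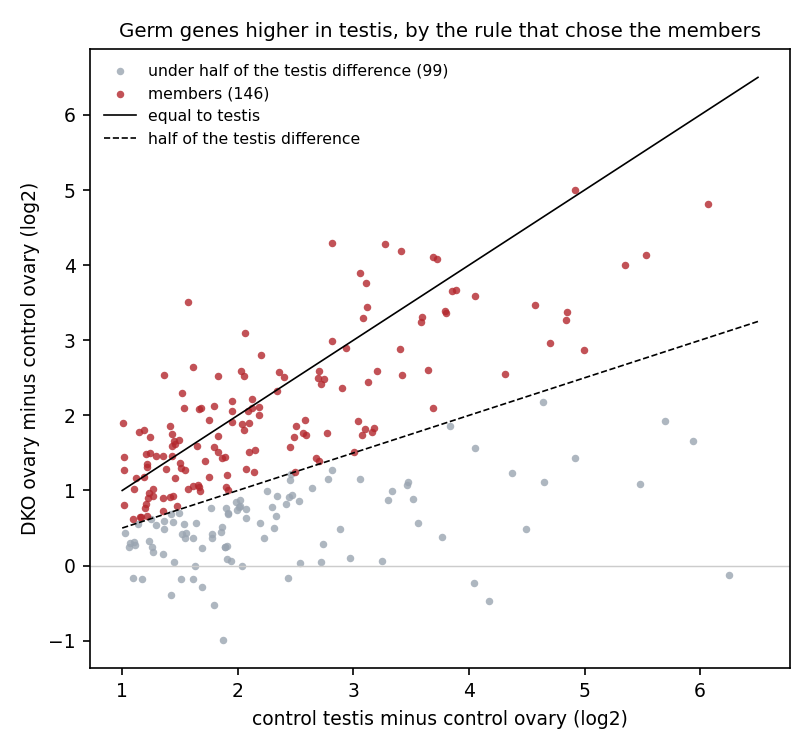
Control testis minus control ovary (x axis, log2) and DKO ovary minus control ovary (y axis, log2) for 245 listed genes with a testis difference of at least 1, each point 1 gene and each value a difference of means of 3 arrays. The 146 members (red) lie on or above the dashed line at 0.5 of the testis difference, by which they were chosen, and 50 of them lie at or above the solid line of equality with testis.

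The rule was repeated without 1 array at a time, and the array left out was then read. It chose 131 to 159 genes, and in the array left out 83.0% to 100% of them differed by at least 1.5-fold in the direction of the rule, against 9.76% to 16.6% of all genes. The array left out was set against the mean of control ovaries, or of DKO ovaries where a control ovary was left out, and those means had chosen the genes, so that only 1 side of each difference was independent of the choice. The lowest share, 83.0%, belonged to DKO ovary 3, in which the genes chosen without it exceeded the control ovaries by a median of 1.33. Relative to the mean of the control ovaries, 99.3%, 98.6% and 92.5% of the members were at least 1.5-fold higher in DKO ovaries 1 to 3, against 12.7%, 13.3% and 11.4% of all genes, and the median over the members was 2.24, 2.03 and 1.49. Within slide 2, where 2 DKO and 2 control ovaries lay side by side, the median difference was 2.25, and 144 of 146 members were at least 1.5-fold higher in the DKO ovaries, against a median of -0.04 and 11.1% of all genes. The arrays of slide 2 had all taken part in the choice of members.

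**Figure D2:**
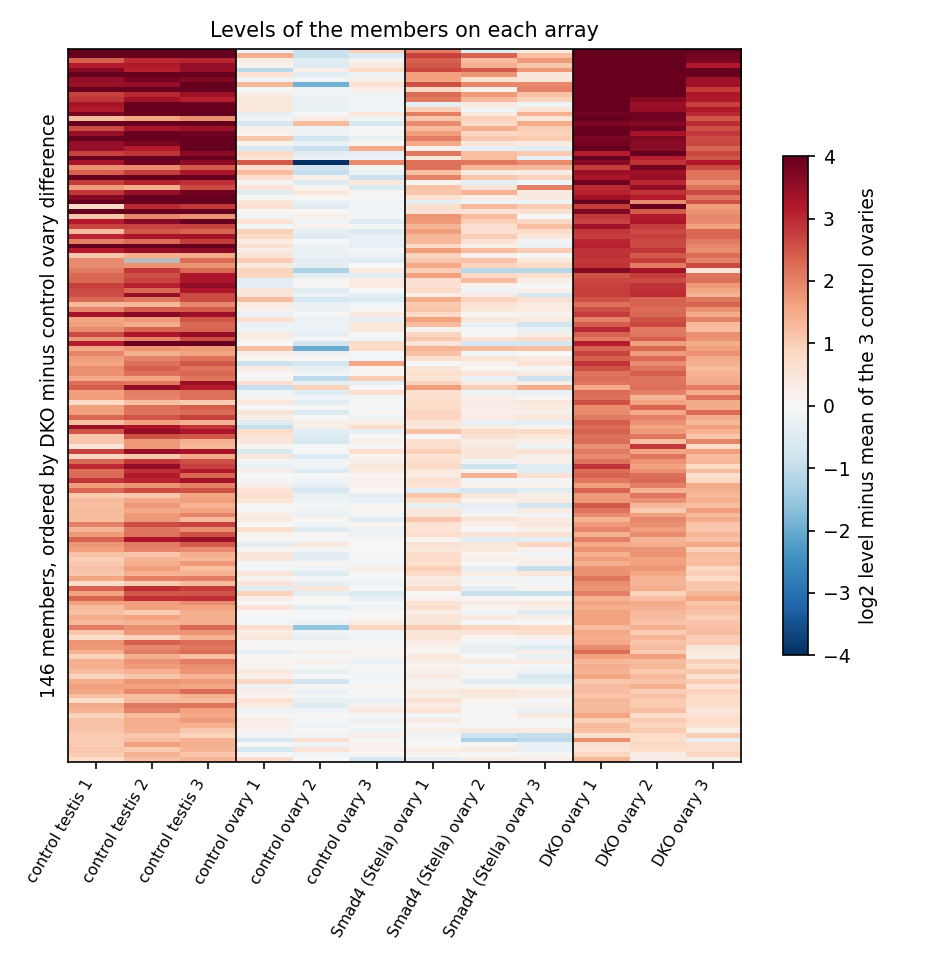
Log2 level of each of the 146 members (rows, ordered by the DKO minus control ovary difference) minus the mean of the 3 control ovaries, on each of the 12 arrays (columns), with colours that saturate at 4 in either direction and grey for 1 missing value. Testes and DKO ovaries are red throughout most rows, DKO ovary 3 is paler than the other DKO arrays, and the Smad4 (Stella) ovaries are faintly red, most on array 1.

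The arrays held no ovary that lacked STRA8 alone, so an effect of STRA8 loss cannot be told apart from one that needs both losses. The Smad4 (Stella) ovaries, which took no part in the choice of members, show the loss of SMAD4 with Stra8 +/-. Against these ovaries 122 of the 146 members rose in DKO ovaries and 0 fell, where 4.4% of 18657 genes tested passed the same call in that direction (limma, adjusted p under 0.05 and at least 1.5-fold). The difference had a median of 1.48 over the members, against 0.01 over all genes, and ranged from 0.39 to 4.34, so that all 146 were above 0. In 136 members every DKO array lay above every Smad4 (Stella) array, as in 16.9% of all genes. The DKO arrays had been used to choose the members, so this comparison is independent of the choice only on the Smad4 (Stella) side. Among the 99 listed genes that missed the DKO condition, 22 passed the same call. The rule had set these genes apart by their low DKO values, so nothing is read from the lower count. Within slide 3, DKO ovary 3 exceeded the 3 Smad4 (Stella) ovaries by a median of 1.08, and 126 of 146 members were at least 1.5-fold higher, against a median of 0.04 and 7.72% of all genes. The count of 122 fell to 29 with the slide as a block, to 27 with normexp background correction and to 74 without either Smad4 (Stella) ovary 2 or Smad4 (Stella) ovary 3, and 0 members fell in any of these fits.

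Each role group below holds only members, and the number of genes kept by name from the study's list with that role is given beside it. Of all members 83.6% rose between Smad4 (Stella) and DKO ovaries, and the DKO arrays had chosen them. No group count is therefore read as a result about its role. Genes best known from the oocyte cytoplasm and cleavage embryos had 4 members from 8 listed genes. Of the 4 members 3 rose between Smad4 (Stella) and DKO ovaries. Their median DKO minus control ovary difference, 4.24, was the highest of the role groups, with the fourth member, Nlrp4f, at 1.20. Nlrp4c, of the NLRP family of NOD-like receptor genes, had levels of -1.27, -2.08 and -1.47 in control ovaries 1 to 3, 0.79, -0.36 and 0.10 in Smad4 (Stella) ovaries, 2.92, 2.99 and 2.16 in DKO ovaries and 0.78, 1.39 and 1.45 in testes. The 3 groups of ovaries did not overlap, Smad4 (Stella) ovary 1 reached the level of testis 1, and the DKO ovaries stood highest, 19.7-fold above control ovaries where testes stood 7.05-fold above them. Against Smad4 (Stella) ovaries the rise of Nlrp4c was 2.51 ± 0.34 (SE, n = 3 and 3, limma adjusted p = 0.00143). Nlrp14, another NLRP gene, had levels of -5.32, -3.96 and -3.45 in control ovaries, with -1.58, -1.76 and -2.52 in Smad4 (Stella) ovaries, -0.25, 0.02 and 0.05 in DKO ovaries and -0.60, -1.13 and -0.76 in testes. It too stepped up from control to Smad4 (Stella) to DKO ovaries without overlap, and rose by 1.90 ± 0.41 at the last step (limma adjusted p = 0.0151).

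Khdc1a, a KH-domain gene of the oocyte and early embryo, had levels of -2.54, -4.90 and -4.55 in control ovaries, with -1.25, -1.68 and -2.79 in Smad4 (Stella) ovaries, 1.32, 1.31 and -0.17 in DKO ovaries and 2.19, 1.74 and 2.29 in testes. Every DKO array lay below every testis array, at 28.1-fold over control ovaries against 67.1-fold in testes. It rose by 2.73 ± 0.63 against Smad4 (Stella) ovaries (limma adjusted p = 0.0198), and Smad4 (Stella) ovary 3 was lower than control ovary 1. Nlrp4f did not pass the test between the mutants (1.16 ± 0.41, limma adjusted p = 0.0936).

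Early germ cell and pluripotency-associated genes had 7 members from 13 listed genes. Of the 7 members 5 rose between Smad4 (Stella) and DKO ovaries, and the 7 reached a median of 113% of the testis difference. Dppa4, a nuclear factor of pluripotent cells, had levels of -0.19, -2.07 and -1.59 in control ovaries, with 0.77, -0.21 and -0.27 in Smad4 (Stella) ovaries, 2.5, 2.45 and 1.33 in DKO ovaries and 3.25, 3.64 and 3.81 in testes. DKO ovaries lay between the Smad4 (Stella) ovaries and the testes without overlap, and the rise over Smad4 (Stella) ovaries was 2.0 ± 0.49 (limma adjusted p = 0.0248). Its neighbour Dppa2 had a higher level in DKO ovaries, at -1.40, -0.98 and -1.77, than in Smad4 (Stella) ovaries, at -2.0, -2.63 and -2.83, but missed the test (limma adjusted p = 0.0551). Utf1, a chromatin protein of undifferentiated embryonic cells, had levels of -2.81, -3.50 and -3.87 in control ovaries, with -1.69, -2.45 and -2.56 in Smad4 (Stella) ovaries, -0.69, -0.17 and -1.51 in DKO ovaries and -0.23, 0.25 and 0.73 in testes. Its ovarian groups did not overlap, and the rise over Smad4 (Stella) ovaries was 1.44 ± 0.40 (limma adjusted p = 0.0423).

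Sall4, a zinc finger factor of germ and embryonic stem cells, rose by 1.25 ± 0.26 against Smad4 (Stella) ovaries (limma adjusted p = 0.0126). Dppa3, also called Stella, is the gene whose regulatory element drives the MerCreMer transgene. Its levels were 4.11, 2.19 and 2.35 in control ovaries, with 4.34, 3.78 and 3.49 in Smad4 (Stella) ovaries, 5.43, 5.24 and 4.98 in DKO ovaries and 5.18, 5.01 and 5.48 in testes. DKO ovaries and testes overlapped, and control ovary 1, the only control ovary with the transgene and the only one on slide 1, stood near the Smad4 (Stella) ovaries. The part of the transgene in these levels was not tested. The difference between the mutants, 1.34 ± 0.43, did not pass the test (limma adjusted p = 0.0728).

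The cancer-testis antigens, proteins made by germ cells and by many tumours, had 11 members from 14 listed genes. Of the 11 members 10 rose between Smad4 (Stella) and DKO ovaries. Their median difference between the mutants was 2.17, against a median Smad4 (Stella) minus control ovary difference of 0.15. Nxf2, an mRNA export factor of germ cells, had levels of -2.58, -2.97 and -2.62 in control ovaries, with -1.06, -1.89 and -1.79 in Smad4 (Stella) ovaries, 1.28, 0.59 and 0.12 in DKO ovaries and 0.75, 1.30 and 1.15 in testes. The DKO ovaries overlapped with the testes and stood clear of the other ovaries, with a rise over Smad4 (Stella) ovaries of 2.24 ± 0.30 (limma adjusted p = 0.00137). Fthl17e, one of several near-identical ferritin heavy chain-like genes whose signals the probe may not tell apart, had levels of -3.59, -4.01 and -4.07 in control ovaries, with -1.66, -2.18 and -2.71 in Smad4 (Stella) ovaries, 0.48, 0.21 and -0.65 in DKO ovaries and -1.15, -0.86 and -0.50 in testes. It rose by 2.19 ± 0.33 between the mutants (limma adjusted p = 0.00233). Mageb16, of the MAGE family, had levels of 0.00, -0.84 and -0.73 in control ovaries, with -0.07, -0.45 and -0.60 in Smad4 (Stella) ovaries, 1.33, 0.85 and 0.59 in DKO ovaries and 0.22, 0.52 and 0.74 in testes.

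Mageb16 thus overlapped between control and Smad4 (Stella) ovaries and rose by 1.30 ± 0.26 from there to DKO ovaries (limma adjusted p = 0.0108). Magea8, another MAGE gene, rose by 1.64 ± 0.44 (limma adjusted p = 0.0366) and reached 164% of the testis difference. Brdt, a bromodomain protein of spermatogenic cells, rose by 0.93 ± 0.17 (limma adjusted p = 0.00594) and reached 66.3%. The 4 Ssx members, Ssxb1, Ssxb2, Ssxb3 and Ssx9, were each dim, with Smad4 (Stella) minus control ovary differences between -0.44 and 0.23, and Ssx9 alone of them did not pass the test between the mutants (limma adjusted p = 0.0725). The Ssx genes were named after their values had been seen.

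Genes that silence transposons, outside the Piwil, Tdrd and Dnmt3 families, had 3 members from 6 listed genes. All 3 members rose between Smad4 (Stella) and DKO ovaries. Morc1, an ATPase required for transposon repression in male germ cells, had levels of -1.76, -1.78 and -1.89 in control ovaries, with -1.23, -1.51 and -1.45 in Smad4 (Stella) ovaries, 1.57, 1.34 and 0.29 in DKO ovaries and 1.82, 2.19 and 2.30 in testes. The 4 groups did not overlap, the rise from Smad4 (Stella) to DKO ovaries was 2.46 ± 0.28 (limma adjusted p = 0.000452), and the DKO ovaries stayed below the testes. Tex19.2, a germ cell protein of the Tex19 pair, had levels of 0.89, 0.18 and 0.38 in control ovaries, with 1.54, 1.11 and 0.84 in Smad4 (Stella) ovaries, 2.67, 2.85 and 2.82 in DKO ovaries and 1.79, 1.81 and 2.41 in testes. All 3 DKO arrays lay above the testes, and the rise over Smad4 (Stella) ovaries was 1.62 ± 0.24 (limma adjusted p = 0.00205). Henmt1, the methyltransferase that protects the 3′ ends of piRNAs, had levels of -3.57, -4.80 and -4.05 in control ovaries, with -4.60, -4.85 and -4.56 in Smad4 (Stella) ovaries, -1.82, -2.74 and -2.72 in DKO ovaries and -1.86, -1.53 and -1.58 in testes. In Henmt1 the Smad4 (Stella) ovaries stood at the level of the lowest control, and the rise to DKO ovaries was 2.25 ± 0.31 (limma adjusted p = 0.00156).

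**Figure D3:**
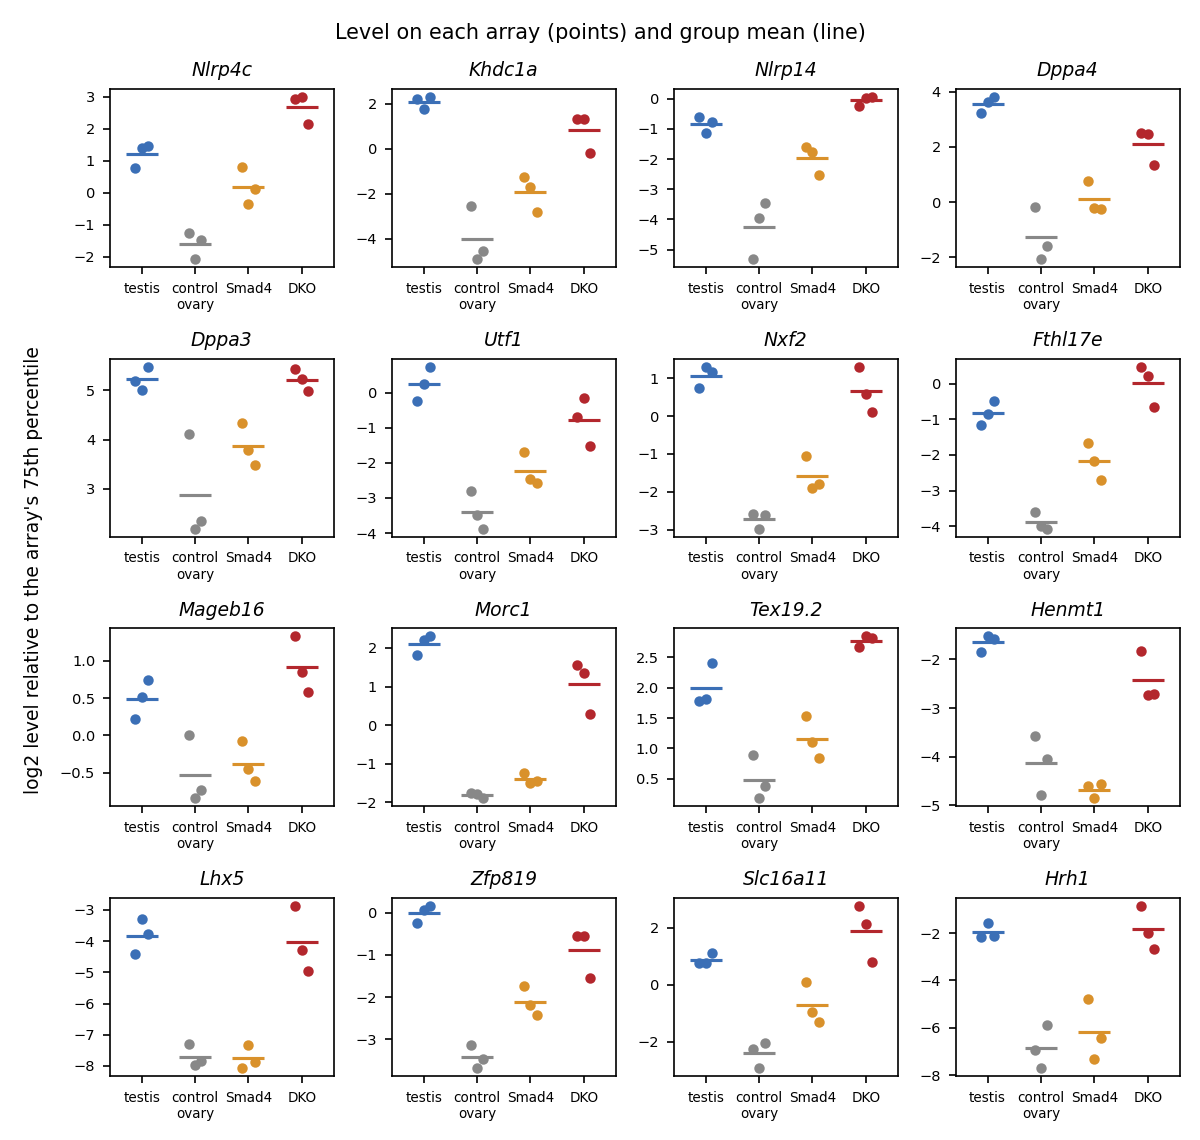
Log2 level relative to the 75th percentile of the array (y axis) of 16 members on each array, with points for the 3 arrays of a group and a line at their mean, for control testes (blue), control ovaries (grey), Smad4 (Stella) ovaries (orange) and DKO ovaries (red). In each panel the 3 DKO points lie above the 3 Smad4 (Stella) points, and in Nlrp4c, Nlrp14 and Tex19.2 they also lie above the 3 testis points.

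Transcription and chromatin factors had 10 members from 24 listed genes. All 10 members rose between Smad4 (Stella) and DKO ovaries, by a median of 1.47. Zfp819, a KRAB zinc finger gene, had levels of -3.13, -3.68 and -3.48 in control ovaries, with -1.74, -2.19 and -2.43 in Smad4 (Stella) ovaries, -0.55, -0.56 and -1.56 in DKO ovaries and -0.25, 0.06 and 0.16 in testes. Its 4 groups did not overlap, and the rise between the mutants was 1.23 ± 0.28 (limma adjusted p = 0.0188). Lhx5, a LIM homeobox gene of the nervous system, was above background on no control ovary and no Smad4 (Stella) array and on all DKO and testis arrays. DKO ovaries were at least 2.92-fold above control ovaries and at least 3.45-fold above Smad4 (Stella) ovaries in Lhx5 (limma adjusted p = 0.000991). Dbx2, the homeobox gene at the threshold, had levels of -1.49, -2.77 and -3.40 in DKO ovaries against -0.31, 0.51 and -0.21 in testes. On the probes that passed the filter this was the widest gap between these groups among the members, at -2.55. Over all probes the gap was smaller, with Dbx2 above control ovaries by 1.25 in DKO ovaries and 2.49 in testes.

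Signalling genes had 12 members from 26 listed genes, and 10 of the 12 members rose between the mutants. Hrh1, a histamine receptor, had levels of -6.95, -7.70 and -5.89 in control ovaries, with -4.79, -7.30 and -6.44 in Smad4 (Stella) ovaries, -0.85, -2.0 and -2.68 in DKO ovaries and -2.14, -1.55 and -2.10 in testes. It was above background on no control ovary array and on 1 Smad4 (Stella) array, and DKO ovaries were at least 13.4-fold above control ovaries. Its rise between the mutants, 4.34 ± 0.67, was the largest among the members (limma adjusted p = 0.00266). Pde4c, a phosphodiesterase that degrades cyclic AMP, had levels of -6.14, -5.63 and -6.16 in control ovaries, with -4.86, -5.07 and -5.48 in Smad4 (Stella) ovaries, -1.83, -2.10 and -3.47 in DKO ovaries and -4.71, -4.41 and -4.10 in testes. It was 11.4-fold above control ovaries in DKO ovaries and 2.97-fold in testes, which makes 224% of the testis difference, the highest share among the members. On control ovaries 1 and 3 Pde4c lay below the lowest level well above background, -5.14 and -5.70. Both folds and the share thus rest on dim control signal. Blnk, an adaptor of B cell receptor signalling, missed the test between the mutants (1.46 ± 0.44, limma adjusted p = 0.0575).

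Transporters, channels and metabolic enzymes formed the largest role group, with 19 members from 33 listed genes. Of the 19 members 16 rose between the mutants, where 83.6% of all members did. Slc16a11, a monocarboxylate transporter, had levels of -2.23, -2.91 and -2.02 in control ovaries, with 0.11, -0.96 and -1.30 in Smad4 (Stella) ovaries, 2.76, 2.11 and 0.80 in DKO ovaries and 0.77, 0.77 and 1.11 in testes. DKO ovaries were 19.4-fold above control ovaries, with a wide spread among themselves, and the rise over Smad4 (Stella) ovaries was 2.61 ± 0.49 (limma adjusted p = 0.00725). Slc32a1, a vesicular GABA transporter, was above background on no control ovary array and was at least 7.87-fold higher in DKO ovaries. Ptgr1, a prostaglandin reductase and the brightest member of its group, differed by 0.51 ± 0.22 between the mutants (limma adjusted p = 0.167) and by -0.077 with the slide as a block, and Abcb6, a porphyrin transporter, by 0.57 ± 0.39 (limma adjusted p = 0.405).

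The cilium genes had 8 members from 16 listed genes. Of the 8 members 7 rose, with Iqcg not passing (0.53 ± 0.28, limma adjusted p = 0.265). Rsph9, a radial spoke protein of motile cilia, had levels of 0.60, 0.56 and 0.50 in control ovaries, with 1.09, 0.87 and 0.99 in Smad4 (Stella) ovaries, 2.16, 2.02 and 1.65 in DKO ovaries and 2.16, 2.21 and 2.45 in testes. Its arrays were close together within each group, and the rise between the mutants was 0.96 ± 0.14 (limma adjusted p = 0.0019). The 3 members best known from later spermatogenesis, from 11 listed genes, were Adad2, Gtf2a1l and Ccna1, and rose by 1.44, 1.27 and 0.92. The 2 ribosome biogenesis members, Rpl39l and Rrp9, from 8 listed genes, rose by 1.18 and 0.93. The 3 epithelial members, Spint1, Krt23 and Cldn3, also from 8 listed genes, rose by 1.48, 1.1 and 1.45. Of the 64 members in no group, 50 rose. Krt222, a keratin-like gene among these, was 17.0-fold above control ovaries in DKO ovaries but did not pass between the mutants (1.96 ± 0.68, limma adjusted p = 0.0934), with control ovary levels of -4.56, -7.80 and -5.28.

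**Figure D4:**
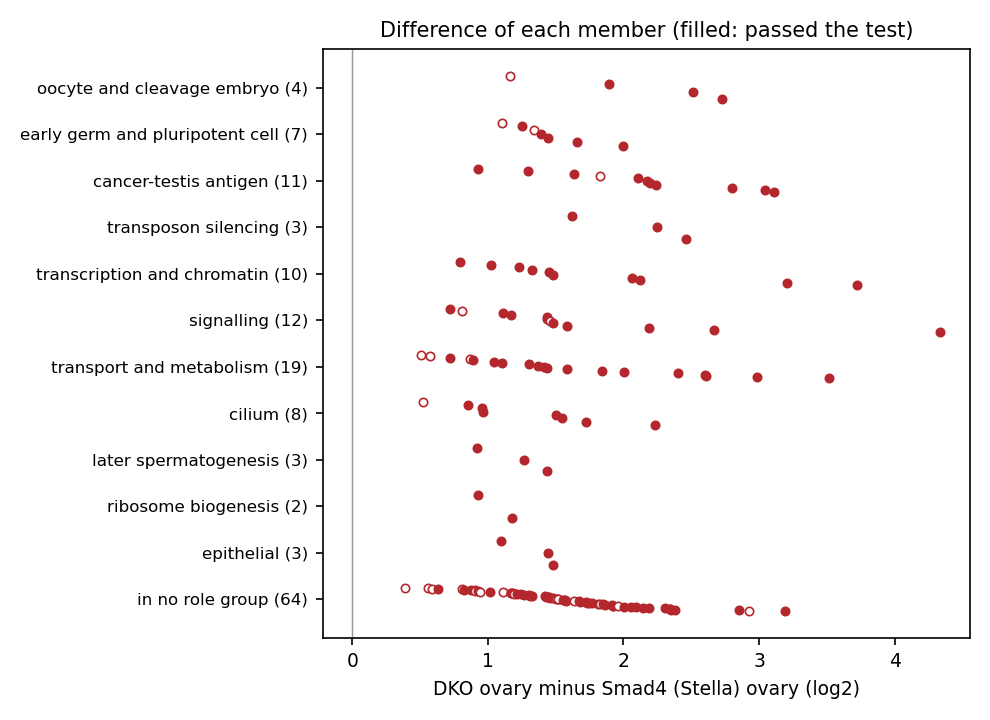
DKO minus Smad4 (Stella) ovary difference in log2 level (x axis) of each of the 146 members, 1 point per gene, by role (y axis, number of members in parentheses). All points lie above 0, the 122 filled points passed the test, and the 24 open points did not.

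The 8 members with every DKO array above every testis array were Nlrp4c, Nlrp14, Uchl1, Tex19.2, Shcbp1l, Rimkla, Zfp640 and Pde4c. Shcbp1l had levels of 1.11, 0.62 and 0.41 in DKO ovaries against -0.71, -0.35 and -0.31 in testes, and its control ovaries stood at -1.29, -2.12 and -2.04. Uchl1, a ubiquitin hydrolase of neurons and male germ line stem cells that was named after its values had been seen, had levels of 4.25, 3.39 and 3.99 in DKO ovaries against 3.24, 3.16 and 3.14 in testes. Zfp640, a zinc finger gene, stood 8.53-fold above control ovaries in DKO ovaries and 4.16-fold in testes. Rimkla was also the member nearest to the minimum testis difference, with 1.01 on the log2 scale.

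In Smad4 (Stella) ovaries, compared with control ovaries, 0 of the 146 members passed the test in limma, where 0.134% of all genes passed as higher. The smallest adjusted p was 0.0555, for Nlrp14. At an unadjusted p under 0.05, 46 members were higher, against 8.36% of all genes, and 1, Cldn3, was lower. In all, 52 members were at least 1.5-fold higher, against 3.97% of all genes, and 3 were at least 1.5-fold lower, while every Smad4 (Stella) array lay above every control ovary array in 43 members, against 12.6% of all genes. The median difference over the members was 0.37, with quartiles of 0.08 and 0.83, against -0.02 over all genes, and 122 of 146 members (83.6%) lay above 0 against 46.6% of all genes. The 99 listed genes that missed the DKO condition had a median of -0.16, and 35 of them lay above 0. The control ovary arrays that set these differences had taken part in the choice of members.

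The size of the difference varied widely among members. It was 2.29 ± 0.41 in Nlrp14, 2.09 ± 0.63 in Khdc1a, 1.78 ± 0.34 in Nlrp4c, 1.71 ± 0.33 in Fthl17e and 1.31 ± 0.28 in Zfp819, none of which passed after adjustment. Members of the oocyte cytoplasm group had a median of 1.94, those of the early germ cell group 0.87, and those of the transcription group 0.19. The Smad4 (Stella) difference made a median of 20.6% of the DKO difference. In 8 members it made more than 50% of it, among them Nlrp14, Zfp819 and Zfp640, and in 41 it made less than 10%. Smad4 (Stella) ovary 1 stood above the others: 57.5% of members were at least 1.5-fold over the control ovary mean on that array, 26.7% on array 2 and 26.0% on array 3, against 7.09%, 4.10% and 5.09% of all genes. Of the control ovaries, ovary 1, with the transgene, had 17.8% of members at least 1.5-fold over the mean of its own group, where ovaries 2 and 3 had 2.05% and 8.90%, against 2.06%, 2.79% and 4.29% of all genes. No slide held both groups, and the median rose to 1.14 with the slide as a block, at which 0 members passed the test and 80 had an unadjusted p under 0.05. With normexp background correction the median was 0.086.

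**Figure D5:**
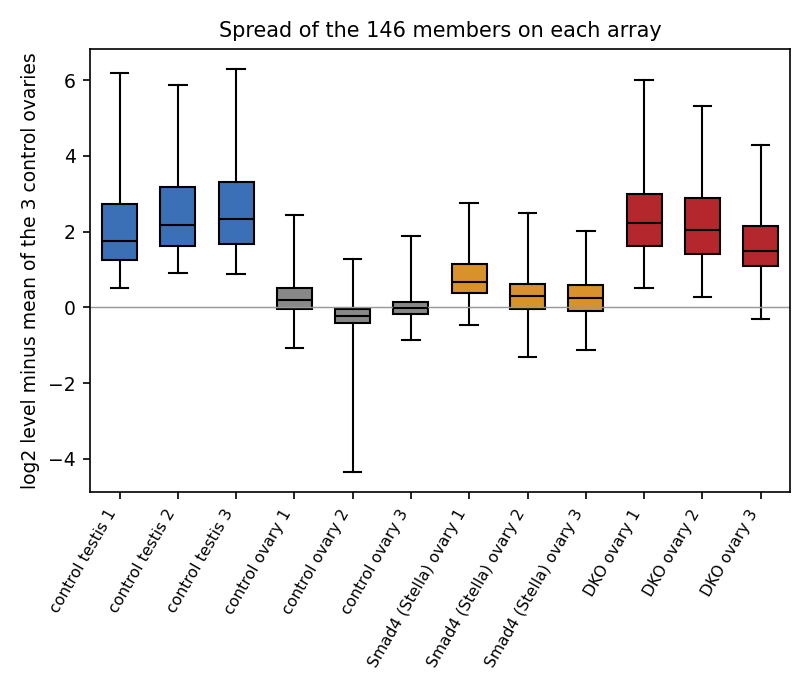
Log2 level of the 146 members minus the mean of the 3 control ovaries (y axis) on each of the 12 arrays (x axis), with boxes from the lower to the upper quartile, a line at the median and whiskers to the lowest and highest member. The medians are 2.24, 2.03 and 1.49 on the DKO arrays and 0.68, 0.30 and 0.26 on the Smad4 (Stella) arrays, all above 0.

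Relatives of the members that were not on the study's list gave a further view of these families, since the rule had not used their values. Of 40 such genes 21 passed the filter on dim probes, and of these 8 rose and 1 fell from control to DKO ovaries. That call was passed by 6.72% of all genes as higher and 7.96% as lower. The filter admits a gene through any 1 group, and Khdc1b, Khdc1c and Padi2 were above background on all 3 arrays only in testes and DKO ovaries. Their part in the 8 is thus not free of the filter. In testes against control ovaries 4 of the 21 were higher and 4 lower. Khdc1b, next to Khdc1a in sequence family, had levels of -7.15, -7.21 and -6.27 in control ovaries, none above background, with -4.12, -4.05 and -6.36 in Smad4 (Stella) ovaries, -1.17, -1.15 and -3.05 in DKO ovaries and -3.40, -3.54 and -2.81 in testes. Tex19.1, the partner of Tex19.2, had levels of 4.52, 3.17 and 3.64 in control ovaries, with 4.69, 4.42 and 4.11 in Smad4 (Stella) ovaries, 5.74, 5.54 and 5.72 in DKO ovaries and 3.93, 4.42 and 4.70 in testes. Its DKO arrays stood above all others, with a rise of 1.89 ± 0.31 over control ovaries (limma adjusted p = 0.00169), while testes and control ovaries overlapped. Magea1, Magea3 and Magea5 rose by 2.21, 2.09 and 1.90, though these near-identical MAGE genes may share signal. Khdc1c, Nxf3 and Padi2 rose as well, by 2.82, 0.93 and 3.01, and Morc2a fell by 0.94. Tex19.1, Magea1, Magea3, Magea5 and Nxf3 did not pass as higher in testes than in control ovaries.

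Markers of the cell types that a gonad holds were read beside the members. Sertoli cell markers, which define the somatic testis, had 10 genes, of which 9 were higher in testes than in control ovaries and 0 passed in either direction for DKO against control ovaries. Their summed intensity, in multiples of the 75th percentile of the array, was 126 to 138 in testes, 3.72 to 4.47 in control ovaries, 4.14 to 5.16 in Smad4 (Stella) ovaries and 3.32 to 4.86 in DKO ovaries. Sox9 differed by -0.09 ± 0.23 between DKO and control ovaries, and Amh was above background on 1 array of either group, though against Smad4 (Stella) ovaries, where it was above background on 0 arrays, it passed as higher in DKO ovaries by 0.91 ± 0.19 (limma adjusted p = 0.0127). Fetal Leydig cell markers, with sums of 64.9 to 74.2 in testes, stood at 1.97 to 2.39 in DKO ovaries and 1.94 to 2.73 in control ovaries. The 7 pregranulosa cell markers, Foxl2 among them, summed to 76.0 to 89.2 in DKO ovaries and 71.2 to 84.1 in control ovaries, and 0 of 7 passed the test between these groups in either direction. Of 10 measured genes of germ cells of both sexes, Kit was higher in DKO than in control ovaries and 5, including the meiotic gene Sycp3, were lower. The sum of the 10 was 53.4 to 64.7 in DKO ovaries and 51.4 to 60.6 in Smad4 (Stella) ovaries. It was 68.3 to 75.5 in control ovaries and 28.4 to 34.3 in testes. Bright genes weigh most in this sum, and Sycp3, lower by 1.81, stood at 4.02, 4.39 and 4.34 in control ovaries. Dazl, also bright, differed by -0.08 ± 0.14 between DKO and control ovaries. Ddx4, a general germ cell marker, differed by 0.14 ± 0.15 between DKO and control ovaries. Between DKO and Smad4 (Stella) ovaries it differed by 0.39 ± 0.15 (limma adjusted p = 0.134). In that comparison 1 of the 10 genes, Kit, passed as higher, by 0.74, and 2 passed as lower.

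Markers of other tissues were read in the same way. Endothelial markers passed in 0 of 6 genes, and macrophage markers in 1 of 6, with Cd68 higher by 0.72. Among erythroid markers 2 of 6 were lower in DKO ovaries. Of 5 mesonephric markers measured, Lhx1 was higher by 1.54, and the sum ranged from 1.62 to 3.80 in DKO ovaries and from 1.34 to 3.05 in control ovaries. Muscle markers summed to between 0.978 and 29.8 in control ovaries and to between 1.17 and 2.02 in DKO ovaries, with 0 of 6 passing. Of 5 oocyte genes measured, Figla alone passed, lower by 2.19 in DKO than in control ovaries. Nobox and Gdf9 differed by -0.89 and -0.28, and Lhx8 and Sohlh2 by 1.02 and 0.41. The sum of the 5 was 3.24 to 4.71 in DKO ovaries against 6.76 to 7.30 in control ovaries. Figla was the brightest of them in control ovaries, at 1.96, 2.24 and 2.38, so the sum follows it most. The part of all these markers in the levels of the members was not tested.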

How the data were processed

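Members, role groups and marker lists were chosen with earlier results of these data known. RNA of 12 pairs of gonads was hybridised to Agilent whole mouse genome arrays annotated on mm9. The authors deposited scanner files from Feature Extraction 11.0.1.1, in which the processed intensity is corrected for background array by array, and a table with these intensities rounded and not scaled between arrays. Here each intensity was taken to log2 after division by the 75th percentile of the non-control spots of its array. Spots marked as outliers were dropped, replicate spots of a probe were averaged, and 0 spots were saturated. All probes of a gene entered the rule. The levels and tests used 27299 of 41174 probes, those detected well above background throughout 1 or more groups, averaged into 18657 genes. Of the probes, 31793 were named through RefSeq.

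A single limma model (version 3.58.1, R 4.3.3) covered all 12 arrays, with Benjamini-Hochberg adjustment over all genes. Calls required an adjusted p under 0.05 together with a change of 1.5-fold or more. Means are of 3 arrays per group, whose number limits the precision. The p-values rest on the spread between separate gonad pairs within groups, pooled over the groups. In control ovaries this spread includes differences of slide and labelled genotype, in DKO ovaries those of slide, and in the other groups neither. Where a group was not above background on any array, a fold was computed against the higher of the probe's own signal and the lowest signal well above background, as a lower bound. On simulated data of 18625 genes with 200 changed, the test for DKO against Smad4 (Stella) ovaries recovered 62% of genes changed by 1 on the log2 scale and 91% of those changed by 2, with 8 false calls, and for Smad4 (Stella) against control ovaries 65% and 90%, with 13. The simulated noise was drawn independently for each gene and array and held no slide differences. False calls that come from the layout of the slides could thus not appear in these counts.

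Members named were the 16 with the largest DKO minus control ovary difference among those well above background on all DKO and testis arrays, up to 4 of each role group by mean level, up to 8 called between Smad4 (Stella) and control ovaries (0 were), the 3 on either side of the threshold, and the 5 with the largest excess over testis, and 1 of them is not reported here. Alternatives were normexp (offset 50), quantile normalization, the deposited table, the brightest probe, outlier spots kept, slide or replicate number as a block, each array left out, no filter, only the groups compared, a 2-fold threshold, the methods' t-test and other shares of the testis difference (0.25 and 0.75). Figures were drawn with matplotlib 3.10.9.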

Additional observations from a re-analysis of the deposited data

How the results depend on the processing

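The number of members was 114 to 170 under every other scaling, probe or block setting tried and 131 to 159 with 1 array left out, while a share of 0.75 of the testis difference in the rule left 95 and one of 0.25 gave 201. The count of members higher in DKO than in Smad4 (Stella) ovaries, 122, was 27 with normexp, 42 with the deposited table and 29 with the slide as a block, and 74 to 128 with 1 array left out, the lowest without Smad4 (Stella) ovary 2 or 3. The methods' t-test gave 0 after Benjamini-Hochberg adjustment and 128 at an unadjusted p under 0.05. Between Smad4 (Stella) and control ovaries the count of 0 became 2 with quantile normalization (Nlrp14 and 4933428M09Rik), 0 to 3 with 1 array left out (Nlrp14 and Dppa3 without control ovary 1, Nlrp14 without control ovary 3, Nlrp4c, Fthl17e and Nlrp14 without DKO ovary 1, Fthl17e and Zfp819 without DKO ovary 3) and 30 in the methods' t-test at an unadjusted p under 0.05. The median Smad4 (Stella) minus control ovary difference was 0.086 with normexp, 0.79 with the deposited table, 1.14 with the slide as a block, and 0.25 to 0.51 with 1 array left out. Among named genes with an unadjusted p under 0.05 for that difference, it turned in sign with normexp for Pde4c (-0.011), Mup4 (-0.0032), 1700084M14Rik (-0.047) and 4933428M09Rik (-0.022), and with the brightest probe for Sdc4 (-0.085). With the slide as a block the DKO minus Smad4 (Stella) difference of Ptgr1 was -0.077. The cause was not tested.

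With the replicate block 146 members met the rule and 109 rose between the mutants, with 0 called between Smad4 (Stella) and control ovaries. The labels do not say what a replicate number shares, and deviations of same-numbered arrays correlated by -0.18 to 0.15, so the numbers were not taken as pairs. Over 59 named genes and all alternatives, 46 of 1416 values of the Smad4 (Stella) minus control ovary difference and 1 of 1416 of the DKO minus Smad4 (Stella) difference changed sign. Dim members limit the precision: 16 were above background on no control ovary array.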
